A study of Mus musculus with 30 samples.

Results

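The comparison described here is that of CD8 T cells cultured with interleukin 2 against CD8 T cells measured fresh. Its means come from 6 of the 30 arrays of the study, chosen by title: 3 of cells cultured with IL-2 at 4 ng/ml (titled D, E and L) and 3 of fresh cells (titled A, B and C). Both groups were splenic cells of C57Bl/6 males, 6 to 10 weeks old. The labels' longer text for the T-cell arrays also mentions B cells, and each array was taken as the subset in its title. Every one of the 746 probe sets that are not controls was compared. Also used, with 3 arrays each, were CD8 cells in IL-2 plus IL-4 at 10 ng/ml, CD8 cells in IL-2 plus IL-12 at 5 ng/ml, CD4 cells in IL-2, fresh CD4 cells and fresh B cells. In the main fit the spread behind each SE and p was estimated from all 30 arrays. The remaining groups there were CD4 cells in IL-2 plus IL-4 or IL-12 at the same doses. B cells with anti-IgM at 10 ug/ml and IL-4 at 10 ng/ml were the last. The array is a custom Affymetrix design for genes that build or bind glycans and for cytokines, chemokines, adhesion molecules and their receptors. The sources used here name no stimulus beside the cytokine for the T cells and give no culture time for the IL-2 arrays. No group was cultured without cytokine, so the action of IL-2 and that of culture as such cannot be told apart.

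IL-2 is the growth factor of activated T cells. Bound to its receptor it signals through JAK kinases and STAT5, and cells that keep receiving it divide and acquire the equipment of killer cells. CD8 effector cells are known for the chemokines and TNF family ligands they release or display, and for changes in the integrins, chemokine receptors and sialylated glycans that decide where they travel.

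The labelled cell type was checked first. Of the 7 CD8 lineage genes listed, 2 were measured under a name, Itgae and Klrd1, and Cd8a, Cd8b1, Cd3e and Cd4 were not analysed here. Klrd1, the CD94 chain of a receptor of NK cells and memory-like CD8 cells, had 9522, 7188 and 5108 units of signal in CD8 IL-2 cells, against 5149, 5672 and 3735 in CD8 fresh cells. Its means were 721 in CD4 IL-2 and 1019 in CD4 fresh cells, so all 6 CD8 arrays lay far above the CD4 means. Itgae did not set CD8 IL-2 cells apart from CD4 IL-2 cells. It had 252, 259 and 374 units in CD8 IL-2 and 316, 300 and 370 in CD4 IL-2 cells. In CD8 fresh cells it had 3165, 2997 and 1981. Cd2, an adhesion receptor of T cells, had 4740, 4115 and 5304 units in CD8 IL-2 cells, against 5155, 6192 and 4033 in CD8 fresh cells, and the groups overlapped. Fresh B cells had 3003, 2429 and 1553 units, so Cd2 signal was not confined to the T-cell arrays.

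Of the marker lists of other cells, that of B cells held 3 genes that fell and each of the others 1 or none. The fallers were 75% of B-cell, 25% of myeloid and dendritic and 14.3% of platelet, endothelial and stromal markers measured. Of all named genes 9.09% fell. Of 4 B-cell markers measured (Cd22, Fcer2a, Cxcr5 and Cd72), 3 fell, and their summed signal ran from 447 to 677 in CD8 IL-2 arrays, against 1237 to 3191 in CD8 fresh arrays. Fresh B cells had sums of 20353 to 25171. Among arrays of the shared scan day the calls of Cd22 and Fcer2a were lost (adjusted p of 0.0808 and 0.0786). Another probe set of each did not pass in the full comparison. Of 4 myeloid and dendritic markers (Itgax, Cd33, Siglec1 and Siglece), 1 fell, and the sum ran from 174 to 324 in CD8 IL-2 arrays, against 771 to 1293 in CD8 fresh arrays. That gap was Itgax alone: the other 3 genes summed to 152 to 256 in CD8 IL-2 arrays, against 183 to 332 in CD8 fresh arrays. Of 7 platelet, endothelial and stromal markers (Pf4, Itga2b, Vcam1, Sele, Tek, Madcam1 and Itgb3), 1 fell, and the sum ran from 737 to 965 in CD8 IL-2 arrays, against 2196 to 2590 in CD8 fresh arrays. Here the gap was Vcam1 alone, and the other 6 genes summed to 667 to 776 in CD8 IL-2 arrays, against 556 to 867 in CD8 fresh arrays. The NK-cell marker Itga2 stayed at or below 32.3 units on all 6 arrays. In bulk RNA, fewer cells of a type and less RNA per cell cannot be told apart, and the part of these other cells in the falls below was not tested.

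**Figure D1:**
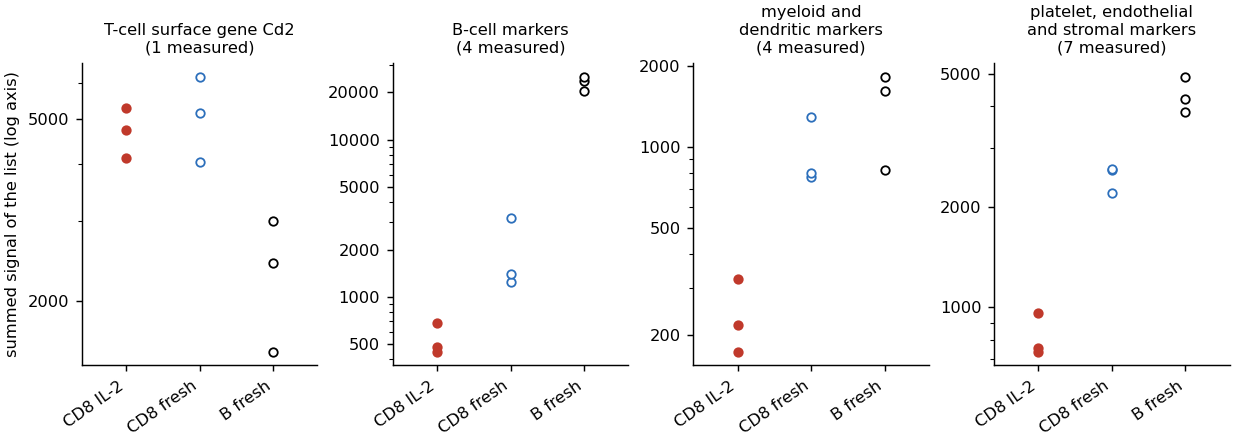
Summed signal of the measured genes of 4 marker lists on each array (log axis), for CD8 IL-2, CD8 fresh and B fresh, with 1 point per array. CD8 IL-2 arrays lie below every CD8 fresh array for the B-cell, myeloid and platelet, endothelial and stromal lists, the last pair through Itgax and Vcam1 alone, and the groups overlap for Cd2.

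Median signals were 121 to 140 on CD8 IL-2 arrays and 132 to 188 on CD8 fresh arrays. The 3'/5' signal ratio of Actb, a gauge of RNA integrity, was 0.905 to 1.15 in CD8 IL-2 and 1.03 to 1.62 in CD8 fresh. That of Gapdh was 0.748 to 1.038 in CD8 IL-2 and 1.042 to 1.62 in CD8 fresh, without overlap. CD8 fresh C was the highest of these arrays in median signal and in both ratios. The chip lot and scan day differ in part with the groups: CD8 IL-2 D and E and CD8 fresh B and C were scanned on 1 day. Of these 6 arrays CD8 fresh A and CD8 IL-2 L were each scanned on a different day, the last on another lot. CD8 fresh A shared its day with CD8 IL-2/IL-4 A, and CD8 IL-2 L shared day and lot with CD8 IL-2/IL-12 L, among others. No label states whether replicate arrays hold RNA of different animals or cultures. The p-values therefore rest on the spread among arrays, and that spread may be technical.

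Of 746 probe sets, 120 (16.1%) passed the test, limma on log2(signal + 16) with a Benjamini-Hochberg adjusted p under 0.05. Among them 55 (7.37%) were higher and 65 (8.71%) lower in CD8 IL-2 cells. The smallest change among the calls was 0.70 on the log2 scale. At the level of 374 named genes, 28 (7.49%) rose and 34 (9.09%) fell. A list's count of calls below is to be read against these shares. Of the 62, 13 rose and 15 fell by more than 4-fold. The 3 arrays of 1 group lay entirely above or below the 3 of the other for 208 probe sets (27.9%), which include 115 of the 120 called. With only the 6 compared arrays in the fit, 88 probe sets passed, 83 of them among the 120. There 15 of the 62 named genes lost their call.

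In a fit of all arrays of the shared scan day (5 residual degrees of freedom) 94 probe sets passed, 83 of them among the 120. Only 4 of its arrays were of the compared groups, and these also entered the full comparison. The other arrays, of CD4 and CD8 cultures scanned that day, added to the estimate of the spread. The balance of directions depended on scaling: 45.8% of calls were higher with the values as deposited, 60.6% after each array was centred on its median and 50% after quantile normalization. Centring moved the median change of all probe sets to 0.13, against -0.09 with the values as deposited. Each change given below is on the scale as deposited, where the median change of named genes was -0.10. Changes of genes that are dim in 1 group depend on the pseudocount. With 64 in place of 16 the log2 changes of Ccl3, Ccl4, Il12rb1 and Itgav were 4.66, 3.69, 4.34 and 2.72, and those of Vegfa and Timp1 were 1.80 and 1.54. Those of Cmah, Cxcl9, Itgax and Kit were -2.68, -2.05, -2.88 and -0.97, and all 10 passed.

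**Figure D2:**
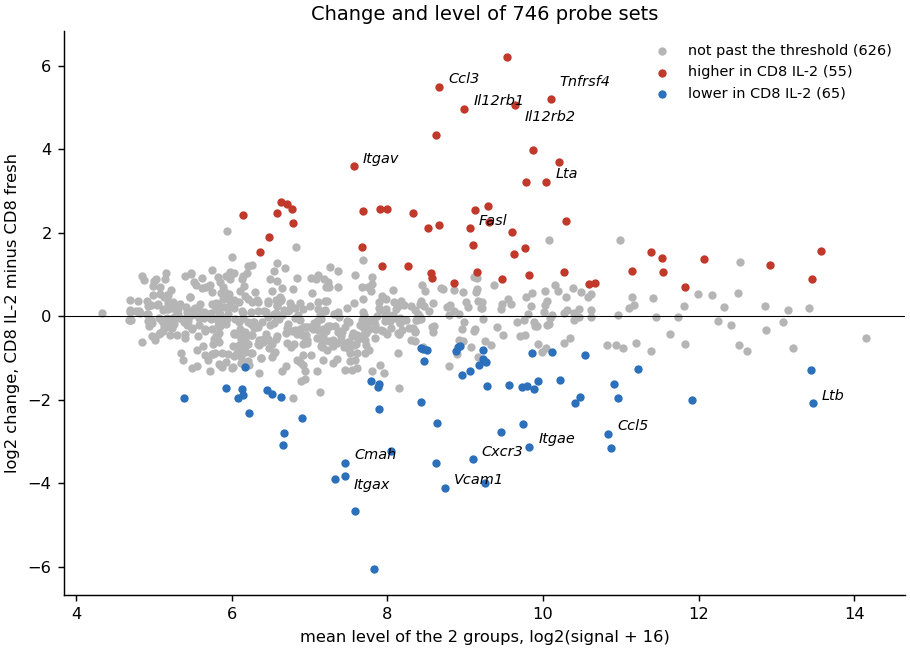
Log2 change, CD8 IL-2 minus CD8 fresh, against the mean level of both groups on the log2(signal + 16) scale, with 1 point per probe set. The 55 higher and 65 lower probe sets occur across the range of levels, and Ccl3, Tnfrsf4, Il12rb2 and Il12rb1 lie near 5 or above.

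The chemokines of CD8 effector cells moved in opposite directions. Ccl3, the inflammatory chemokine MIP-1 alpha, had 4376, 3841 and 1191 units in CD8 IL-2 cells, against 26.0, 86.3 and 35 in CD8 fresh cells. The groups did not overlap, and CD8 IL-2 L was the lowest of the cultured arrays. The change was 5.50 ± 0.54 on the log2 scale (SE, 3 arrays each, limma adjusted p = 3.51e-08), or 45.4-fold. It was 6.09 without CD8 IL-2 L. Ccl4, MIP-1 beta, a related chemokine encoded beside Ccl3, had 2200, 1407 and 1771 units in CD8 IL-2 cells, against 59.0, 175 and 31.8 in CD8 fresh cells, a change of 4.33 ± 0.40 (SE, limma adjusted p = 1.92e-08). Ccl5 (RANTES), a chemokine whose mRNA memory CD8 cells keep in store, fell. It had 610, 738 and 678 units in CD8 IL-2 cells, against 6093, 4464 and 4170 in CD8 fresh cells, 7.05-fold lower (log2 change -2.82 ± 0.52, SE, limma adjusted p = 0.000205). A second, dimmer Ccl5 probe set averaged 28.4 ± 18.9 in CD8 IL-2 and 95.9 ± 60.2 in CD8 fresh cells (SD, n = 3 each) and did not pass.

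Xcl1, lymphotactin, which attracts cross-presenting dendritic cells, had 8533, 4386 and 1480 units in CD8 IL-2 cells, against 1422, 1443 and 572 in CD8 fresh cells. Its groups did not overlap, but the change of 1.84 ± 0.81 did not pass (limma adjusted p = 0.148). Of 21 other chemokines 1 rose and 1 fell. Cxcl10, a CXCR3 ligand, had 268, 339 and 450 units in CD8 IL-2 cells, against 70.1, 77.6 and 171 in CD8 fresh cells. Cxcl9, another CXCR3 ligand made by interferon-exposed myeloid cells, had 20.6, 19.7 and 15.8 units in CD8 IL-2 cells, against 449, 252 and 184 in CD8 fresh cells. The log2 changes were 1.65 ± 0.36 for Cxcl10 and -3.08 ± 0.42 for Cxcl9 (SE). The call of Cxcl10 was lost among arrays of the shared scan day (1.26, adjusted p = 0.206).

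Among 16 effector cytokines and chemokines measured, 5 rose (Ccl3, Ccl4, Lta, Fasl and Il10), 2 fell (Ccl5 and Ltb) and 9 did not pass, with a median change of 0.33. Il10, an anti-inflammatory cytokine that effector T cells also make, had 737, 981 and 1292 units in CD8 IL-2 cells, against 228, 308 and 341 in CD8 fresh cells (1.71 ± 0.36, SE). The helper cytokines Il4, Il5, Il13 and Il17a and the growth factors Il2 and Il3 did not pass, with changes between -0.43 and 0.89. Il2 itself had 54.7, 14.8 and 81.5 units in CD8 IL-2 cells, against 22.2, 25.9 and 54.3 in CD8 fresh cells, overlapping groups at a dim signal.

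Promoter windows follow for the ligand and receptor genes of largest rise for which the RefSeq table holds one (Ccl3, Tnfrsf4, Il12rb2 and Lta). Beside them stand Ltb, which fell and has a start site 10844 bases from that of Lta, and Cxcr3, the chemokine receptor of largest fall. Each is the 300 bases around the start site (250 before, 50 after, assembly GRCm38.p6, 5′ to 3′ on the gene's strand). Capitals mark matches, on both strands, to GGAAA (the core bound by NFAT), TGANTCA (AP-1), TTCNNNGAA (STAT) and TATAAA. Matches to GGAAA and TTCNNNGAA overlap in Lta.

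Ccl3 (rose, chr11:83649329-83649628, minus strand): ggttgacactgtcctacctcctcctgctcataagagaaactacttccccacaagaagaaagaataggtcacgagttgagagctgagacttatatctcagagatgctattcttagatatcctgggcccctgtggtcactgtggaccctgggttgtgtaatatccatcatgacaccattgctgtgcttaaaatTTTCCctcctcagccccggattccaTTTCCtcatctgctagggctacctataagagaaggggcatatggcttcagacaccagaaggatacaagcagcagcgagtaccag
Il12rb2 (rose, chr6:67376139-67376438, minus strand): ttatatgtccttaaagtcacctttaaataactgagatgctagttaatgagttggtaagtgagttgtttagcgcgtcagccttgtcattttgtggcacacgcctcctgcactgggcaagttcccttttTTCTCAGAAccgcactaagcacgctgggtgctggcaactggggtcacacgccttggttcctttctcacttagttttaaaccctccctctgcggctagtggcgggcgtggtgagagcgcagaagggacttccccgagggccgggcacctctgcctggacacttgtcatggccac
Tnfrsf4 (rose, chr4:156013445-156013744, plus strand): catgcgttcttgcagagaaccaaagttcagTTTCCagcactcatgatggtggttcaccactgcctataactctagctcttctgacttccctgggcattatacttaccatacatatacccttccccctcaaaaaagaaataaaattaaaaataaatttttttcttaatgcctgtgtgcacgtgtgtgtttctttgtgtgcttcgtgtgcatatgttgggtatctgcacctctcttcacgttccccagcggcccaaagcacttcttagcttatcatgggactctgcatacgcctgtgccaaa
Lta (rose, chr17:35205302-35205601, minus strand): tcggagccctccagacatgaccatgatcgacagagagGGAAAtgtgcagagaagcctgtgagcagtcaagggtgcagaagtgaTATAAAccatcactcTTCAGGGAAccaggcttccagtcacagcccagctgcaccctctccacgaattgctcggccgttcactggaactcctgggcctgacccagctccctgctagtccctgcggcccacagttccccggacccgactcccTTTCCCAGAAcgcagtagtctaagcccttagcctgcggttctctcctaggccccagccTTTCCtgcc
Ltb (fell, chr17:35194257-35194556, plus strand): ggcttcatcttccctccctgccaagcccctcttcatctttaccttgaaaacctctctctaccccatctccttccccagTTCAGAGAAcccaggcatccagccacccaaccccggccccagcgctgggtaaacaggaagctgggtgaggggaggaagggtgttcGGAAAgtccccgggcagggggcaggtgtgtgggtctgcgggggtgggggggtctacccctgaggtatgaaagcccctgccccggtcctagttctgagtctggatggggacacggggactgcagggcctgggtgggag
Cxcr3 (fell, chrX:101734098-101734397, minus strand): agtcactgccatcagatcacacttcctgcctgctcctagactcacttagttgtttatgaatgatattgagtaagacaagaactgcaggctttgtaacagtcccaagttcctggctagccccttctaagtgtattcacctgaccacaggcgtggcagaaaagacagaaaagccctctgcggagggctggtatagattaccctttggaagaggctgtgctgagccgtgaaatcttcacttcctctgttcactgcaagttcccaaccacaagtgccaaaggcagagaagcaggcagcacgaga

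GGAAA was found at 2 places in the Ccl3 window, 3 in Lta, 1 in Tnfrsf4 and 1 in Ltb, and in none of Il12rb2 and Cxcr3. TTCNNNGAA was found at 2 places in Lta, 1 in Il12rb2 and 1 in Ltb, and TATAAA at 1 place, in Lta. TGANTCA was in none of the 6. Of all 32851 windows of this length (mouse chromosome 18 left out), 61.3% hold GGAAA, 7.81% TGANTCA, 8.30% TTCNNNGAA and 13.6% TATAAA. Of the 20 named genes with the highest changes, 15 have a window, and 13 of their 17 windows hold GGAAA. Of the 20 with the lowest changes, 14 have a window, and 14 of their 21 windows hold it. TGANTCA was in 3 of the 17 (17.6%) and 6 of the 21 (28.6%). TTCNNNGAA was in 3 of the 17 (17.6%) and 1 of the 21 (4.76%), and TATAAA in 1 and 3. Whether these shares differ from those of all windows was not tested. A match is a string of letters and is not shown to be a bound site.

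The TNF family ligands held risers and 1 faller. Of 11 measured, 4 rose, 1 fell and the median change was 0.60. Lta, lymphotoxin alpha, which is secreted as a homotrimer or held at the membrane by lymphotoxin beta, had 2721, 2331 and 5149 units in CD8 IL-2 cells, against 320, 401 and 277 in CD8 fresh cells (3.22 ± 0.42, SE, limma adjusted p = 2.79e-06). Ltb, lymphotoxin beta, its membrane partner in signals for lymphoid tissue, had 4985, 5026 and 6556 units in CD8 IL-2 cells, against 22400, 25645 and 21791 in CD8 fresh cells. It fell by 2.08 ± 0.25 on the log2 scale (SE, limma adjusted p = 9.34e-07), while its partner, with a start site 10844 bases away on chromosome 17, rose. Fresh B cells averaged 22680 for Ltb, within the range of CD8 fresh arrays. No array of either gene crossed into the range of the other group.

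Fasl, the death ligand through which killer cells trigger apoptosis, had 1050, 1120 and 1095 units in CD8 IL-2 cells, against 224, 242 and 258 in CD8 fresh cells, 4.30-fold higher (2.10 ± 0.31, SE, limma adjusted p = 1.12e-05). Its receptor Fas did not pass (0.47 ± 0.27). Tnfsf4, the OX40 ligand, had 927, 839 and 511 units in CD8 IL-2 cells, against 135, 52.3 and 230 in CD8 fresh cells (2.46 ± 0.43, SE). Tnfsf8, the CD30 ligand, had 2054, 1493 and 1134 units in CD8 IL-2 cells, against 402, 478 and 573 in CD8 fresh cells (1.63 ± 0.32, SE). Of the other ligands, Tnfsf10 (TRAIL), Tnfsf11 (RANKL), Tnfsf13, Tnfsf13b, Cd70 and Cd40lg did not pass, with changes between -0.64 and 0.89.

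Of 7 TNF family receptors, 2 rose and none fell, with a median change of 0.47. Tnfrsf4, the costimulatory receptor OX40, had 7220, 6842 and 5932 units in CD8 IL-2 cells, against 286, 92.5 and 164 in CD8 fresh cells. That is 36.9-fold higher (5.21 ± 0.51, SE, limma adjusted p = 3.51e-08), and its ligand Tnfsf4 rose on the same arrays. Tnfrsf18 (GITR), a costimulatory receptor also known from regulatory T cells, had 1286, 1231 and 1511 units in CD8 IL-2 cells, against 184, 260 and 211 in CD8 fresh cells (2.54 ± 0.44, SE). Tnfrsf9 (4-1BB), a receptor brought up by antigen signals in CD8 cells, had 24.2, 84.2 and 13.8 units in CD8 IL-2 cells, against 44.8, 14.5 and 26.7 in CD8 fresh cells, and the groups overlapped. Tnfrsf8 (CD30) had 141, 281 and 25 units in CD8 IL-2 cells, against 10.5, 16.3 and 16.1 in CD8 fresh cells, without overlap, and missed the threshold (adjusted p = 0.0652).

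Both chains of the IL-12 receptor rose by similar amounts. Il12rb2, the chain that carries STAT4 signalling, had 4409, 5248 and 4234 units in CD8 IL-2 cells, against 81.8, 108 and 202 in CD8 fresh cells, 33.5-fold higher (5.07 ± 0.37, SE, limma adjusted p = 2.85e-10). Il12rb1, the chain shared with the IL-23 receptor, had 2725, 2691 and 3086 units in CD8 IL-2 cells, against 37.1, 169 and 59.4 in CD8 fresh cells (4.98 ± 0.51, SE, limma adjusted p = 5.77e-08). The cultures with IL-4 or IL-12 beside IL-2 had Il12rb2 means of 5044 and 4440, so the chain was high in all CD8 cultures. Il2rb, the IL-2 receptor beta chain, had 8429, 7925 and 11806 units in CD8 IL-2 cells, against 3842, 4421 and 3119 in CD8 fresh cells. Its groups did not overlap, and the change of 1.29 ± 0.51 missed the threshold (limma adjusted p = 0.0861). Il7r, which carries the survival signal of resting T cells, had 5476, 4680 and 4084 units in CD8 IL-2 cells, against 7737, 10069 and 7431 in CD8 fresh cells, also without overlap and not past the threshold (-0.82 ± 0.36).

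Other cytokine receptors fell or did not pass. Of 8 receptor chains for IL-1, IL-10, IL-17 and interferons, 3 fell. Ifnar2, a chain of the type I interferon receptor, had 657, 699 and 708 units in CD8 IL-2 cells, against 1723, 2577 and 1795 in CD8 fresh cells (-1.52 ± 0.26, SE), while its partner Ifnar1 did not pass (-0.08 ± 0.25). Il17ra and Il10ra fell by 1.65 ± 0.37 and 0.89 ± 0.29 on the log2 scale (SE). The call of Il10ra was lost after median centring (adjusted p = 0.269) and without CD8 fresh A or B or CD8 IL-2 D or E (adjusted p of 0.0726 to 0.133), and its dimmer probe set did not pass. Il17ra was not called among arrays of the shared scan day (adjusted p = 0.0842). Of 14 receptors and ligands of the gp130, beta common and Kit groups, Il11ra1 and Kit fell (14.3%, beside 9.09% of all named genes) and 12 did not pass. Il11ra1 was not called among arrays of the shared scan day (-3.51, adjusted p = 0.0609). Kit, the stem cell factor receptor, had 17.7, 17.1 and 17.2 units in CD8 IL-2 cells, against 106, 126 and 60.9 in CD8 fresh cells, near the low end of the signal range.

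**Figure D3:**
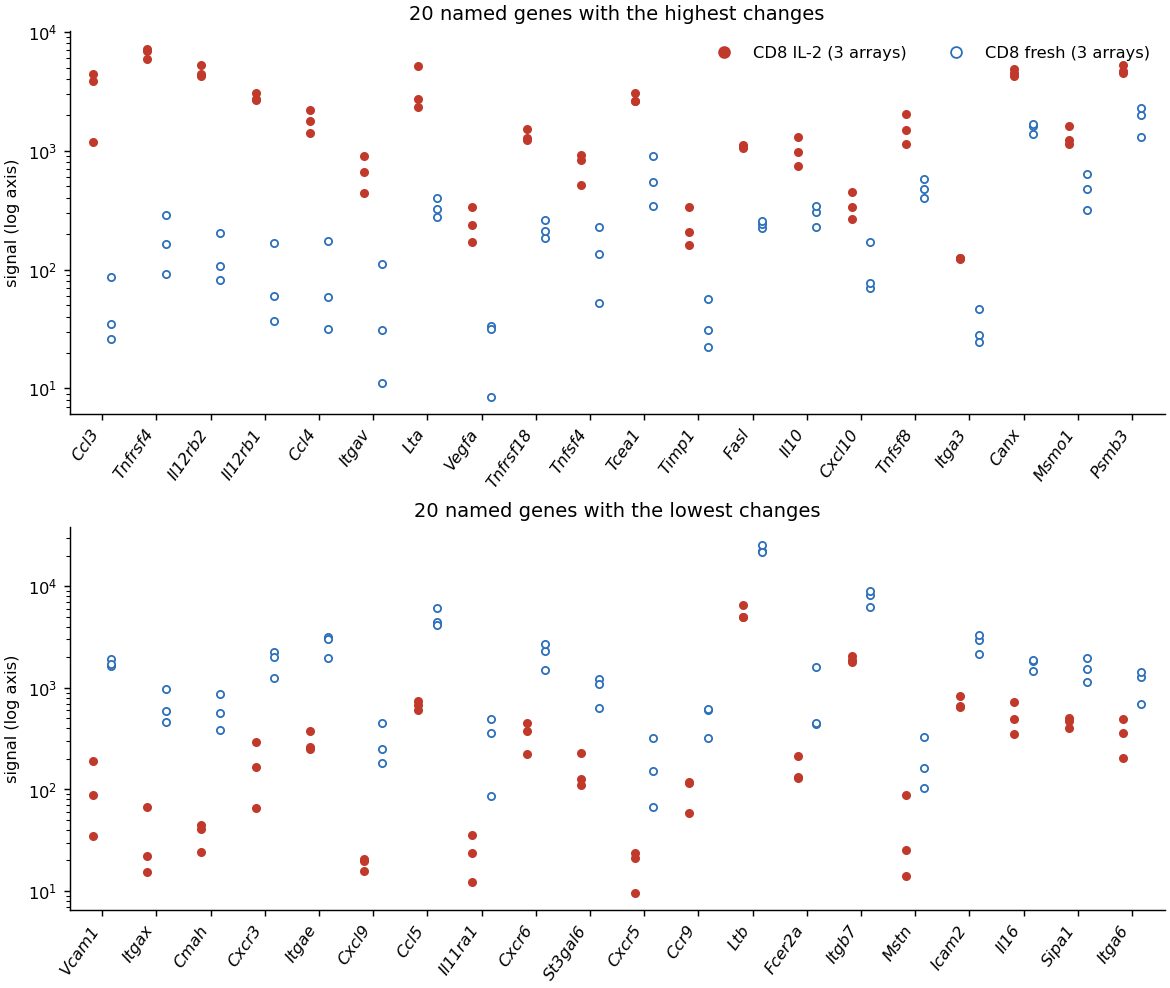
Signal (log axis) of each CD8 IL-2 array (filled, left) and CD8 fresh array (open, right) for the 20 named genes with the highest and the 20 with the lowest changes that passed. These genes were chosen for groups that do not overlap, and the widest gaps among the risers are those of Ccl3, Tnfrsf4, Il12rb2, Il12rb1 and Ccl4.

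Of 13 chemokine receptors measured, 5 fell (Cxcr3, Cxcr6, Cxcr5, Ccr9 and Xcr1) and none rose, with a median change of -0.81. Cxcr3, the receptor that guides T cells to interferon-induced chemokines, had 166, 65.9 and 296 units in CD8 IL-2 cells, against 2256, 2011 and 1239 in CD8 fresh cells, 10.8-fold lower (-3.43 ± 0.62, SE, limma adjusted p = 0.000159). Cxcr6, a receptor of tissue-resident memory cells, had 376, 449 and 221 units in CD8 IL-2 cells, against 2287, 2693 and 1485 in CD8 fresh cells (-2.59 ± 0.37, SE). Ccr9, which leads lymphocytes to the small intestine, had 59.1, 116 and 118 units in CD8 IL-2 cells, against 601, 626 and 323 in CD8 fresh cells (-2.22 ± 0.42, SE). Fresh B cells averaged 198 for Cxcr3, 183 for Cxcr6 and 167 for Ccr9, below every CD8 fresh array. Cxcr5, the follicle-homing receptor, is also a B-cell marker, and fresh B cells averaged 1192 against 66.7 to 321 in CD8 fresh arrays. Xcr1, the Xcl1 receptor of cross-presenting dendritic cells, had 24.6, 18.9 and 24.3 units in CD8 IL-2 cells, against 296, 189 and 17.3 in CD8 fresh cells. Its groups overlapped, and the call was lost without any 1 of the 6 arrays but CD8 fresh C (adjusted p of 0.0821 to 0.273).

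Ccr7, the receptor for lymph node chemokines, did not pass. It had 4623, 2912 and 1761 units in CD8 IL-2 cells, against 4289, 5227 and 4223 in CD8 fresh cells. The groups overlapped. Itgb2, the beta chain of LFA-1, also did not pass (-0.32 ± 0.35).

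Of 5 gut-homing genes 3 fell, with a median change of -2.01. Itgae, the CD103 chain that binds E-cadherin of epithelia, had 252, 259 and 374 units in CD8 IL-2 cells, against 3165, 2997 and 1981 in CD8 fresh cells, 8.74-fold lower (-3.13 ± 0.30, SE, limma adjusted p = 2.79e-08). Itgb7, its beta chain partner, had 2053, 1783 and 1885 units in CD8 IL-2 cells, against 8129, 9047 and 6218 in CD8 fresh cells, 4.02-fold lower (-2.01 ± 0.31, SE, limma adjusted p = 2.57e-05). Both chains of the CD103 integrin and the gut receptor Ccr9 thus fell on the same arrays, while Itga4, the other partner of Itgb7, did not pass (-0.16 ± 0.51).

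Of 12 integrin chains, 2 rose and 4 fell. Itgav, the alpha V chain of receptors for RGD-bearing matrix proteins, had 662, 906 and 443 units in CD8 IL-2 cells, against 112, 11.1 and 31.0 in CD8 fresh cells (3.59 ± 0.42, SE, limma adjusted p = 4.91e-07). Without CD8 fresh A the change was 4.21. A second Itgav probe set averaged 24.2 in CD8 IL-2 and 19.1 in CD8 fresh cells and did not pass. Itga3, a laminin receptor chain, rose by 1.54 ± 0.45, and Itga6, another, fell by 1.66 ± 0.43 on the log2 scale (SE). Each lost its call among arrays of the shared scan day (adjusted p of 0.0994 and 0.116), Itga3 also without CD8 fresh A or B (0.0579 and 0.0674) and Itga6 without CD8 IL-2 L (0.0574). Itgax, the dendritic cell integrin CD11c, had 22.2, 15.5 and 67.5 units in CD8 IL-2 cells, against 975, 588 and 465 in CD8 fresh cells (-3.83 ± 0.61, SE). It is 1 of the 4 myeloid and dendritic markers given above, and the other 3 did not pass.

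Among 5 adhesion molecules of the immunoglobulin family 3 fell: Vcam1, Icam2 and Cd22. Vcam1, the endothelial and stromal ligand of the VLA-4 integrin, had 189, 88.7 and 35.2 units in CD8 IL-2 cells, against 1640, 1944 and 1723 in CD8 fresh cells, 17.3-fold lower (-4.11 ± 0.43, SE, limma adjusted p = 1.01e-07). A second probe set averaged 11.97 in CD8 IL-2 and 1842 in CD8 fresh cells, a change of -6.05 ± 0.39 (SE). Fresh B cells averaged 3169 for the first of them. Other endothelial genes did not pass: Sele had 202, 27.0 and 18.6 units in CD8 IL-2 cells, against 25.4, 198 and 160 in CD8 fresh cells, and Tek had a difference of 0.08 ± 0.62. Icam2, a ligand of LFA-1, had 826, 654 and 666 units in CD8 IL-2 cells, against 2966, 3324 and 2163 in CD8 fresh cells (-1.94 ± 0.30, SE), and fresh B cells averaged 3382. Selplg (PSGL-1), the mucin-like scaffold on which selectin ligands are built, had 6912, 6192 and 8524 units in CD8 IL-2 cells, against 16872, 19539 and 15934 in CD8 fresh cells (-1.28 ± 0.29, SE, limma adjusted p = 0.00216).

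Sialic acids cap most surface glycans of T cells and are added by sialyltransferases. St3gal6, which adds alpha2,3-linked sialic acid to galactose, had 126, 111 and 230 units in CD8 IL-2 cells, against 1229, 1081 and 635 in CD8 fresh cells, 5.84-fold lower (-2.55 ± 0.37, SE, limma adjusted p = 1.12e-05). Fresh B cells averaged 1266 for it. It was the only 1 of 4 sialyltransferases to pass, and St6galnac1, St6galnac4 and St8sia1 had differences of 0.03 ± 0.65, 0.65 ± 0.31 and -1.20 ± 0.49. Cmah, the hydroxylase that turns the Neu5Ac form of sialic acid into Neu5Gc, had 41.1, 45.1 and 24.5 units in CD8 IL-2 cells, against 867, 567 and 388 in CD8 fresh cells, 11.4-fold lower (-3.51 ± 0.52, SE, limma adjusted p = 1.65e-05). Slc35a1, the Golgi transporter of activated sialic acid, and Renbp did not pass (0.22 ± 0.24 and -0.08 ± 0.31). The sialidase Neu3, which acts on gangliosides, had 201, 251 and 123 units in CD8 IL-2 cells, against 65.0, 14.1 and 90.1 in CD8 fresh cells, without overlap and short of the threshold (adjusted p = 0.0622).

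None of 5 fucosyltransferases and none of 6 galactosyltransferases passed, with median changes of -0.25 and -0.06. The same held for 4 N-acetylglucosaminyltransferases, which include Gcnt1, the core 2 enzyme of O-glycans (20.7, 23.9 and 35.1 units in CD8 IL-2 cells, against 23.5, 22.3 and 38.4 in CD8 fresh cells). Fut7, needed for selectin ligands, had 125, 60.7 and 367 units in CD8 IL-2 cells, against 187, 100 and 280 in CD8 fresh cells. Many of these probe sets were dim, and no detection call was used, so a change at such signals may not have been detectable.

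Of 3 genes listed under the N-glycan precursor and its transfer, 2 rose, and 1 of these, Canx, also stands in the list for glycoprotein folding. Canx, the calnexin chaperone that holds newly N-glycosylated proteins in the endoplasmic reticulum, had 4858, 4490 and 4258 units in CD8 IL-2 cells, against 1616, 1680 and 1386 in CD8 fresh cells (1.53 ± 0.33, SE, limma adjusted p = 0.00111). Dpm2, a subunit of dolichol phosphate mannose synthase, had 1574, 1364 and 911 units in CD8 IL-2 cells, against 719, 822 and 408 in CD8 fresh cells (0.99 ± 0.28, SE). Its call was lost without CD8 fresh C (adjusted p = 0.128) and without CD8 IL-2 D or E (0.0826 and 0.0582). Rpn2, a subunit of the oligosaccharyltransferase, did not pass (0.28 ± 0.23).

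Of 14 sulfotransferases and sulfate donors, 2 fell (14.3%, beside 9.09% of all named genes). Hs6st1, a heparan sulfate 6-O-sulfotransferase, had 420, 346 and 456 units in CD8 IL-2 cells, against 753, 928 and 844 in CD8 fresh cells (-1.02 ± 0.24, SE), and Papss1, which makes the sulfate donor, fell by 1.16 ± 0.36. Of 17 lysosomal glycosidases, sulfatases and related hydrolases, 4 fell and none rose, with a median change of -0.30. Lipa, lysosomal acid lipase, had 484, 611 and 580 units in CD8 IL-2 cells, against 1697, 1714 and 1532 in CD8 fresh cells (-1.54 ± 0.24, SE, limma adjusted p = 2.57e-05). Manba, Galns and Idua fell by 1.06, 0.82 and 0.73 on the log2 scale, and these 3 calls were lost after median centring (adjusted p of 0.0929, 0.194 and 0.208). Hs6st1 and Papss1 were lost there too (0.0566 and 0.142). Among arrays of the shared scan day Manba, Galns and Idua were not called (limma adjusted p of 0.332, 0.0884 and 0.130). Manba was also not called with 1 value per gene (-0.58, adjusted p = 0.0797), and another of its probe sets did not pass. Without single arrays, calls were also lost for Papss1 (any but CD8 fresh C, adjusted p of 0.0522 to 0.111), Idua (CD8 fresh B or C or CD8 IL-2 L, 0.109 to 0.198), Galns (CD8 fresh A or CD8 IL-2 D, 0.0579 and 0.0626) and Manba (CD8 IL-2 L, 0.0504).

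**Figure D4:**
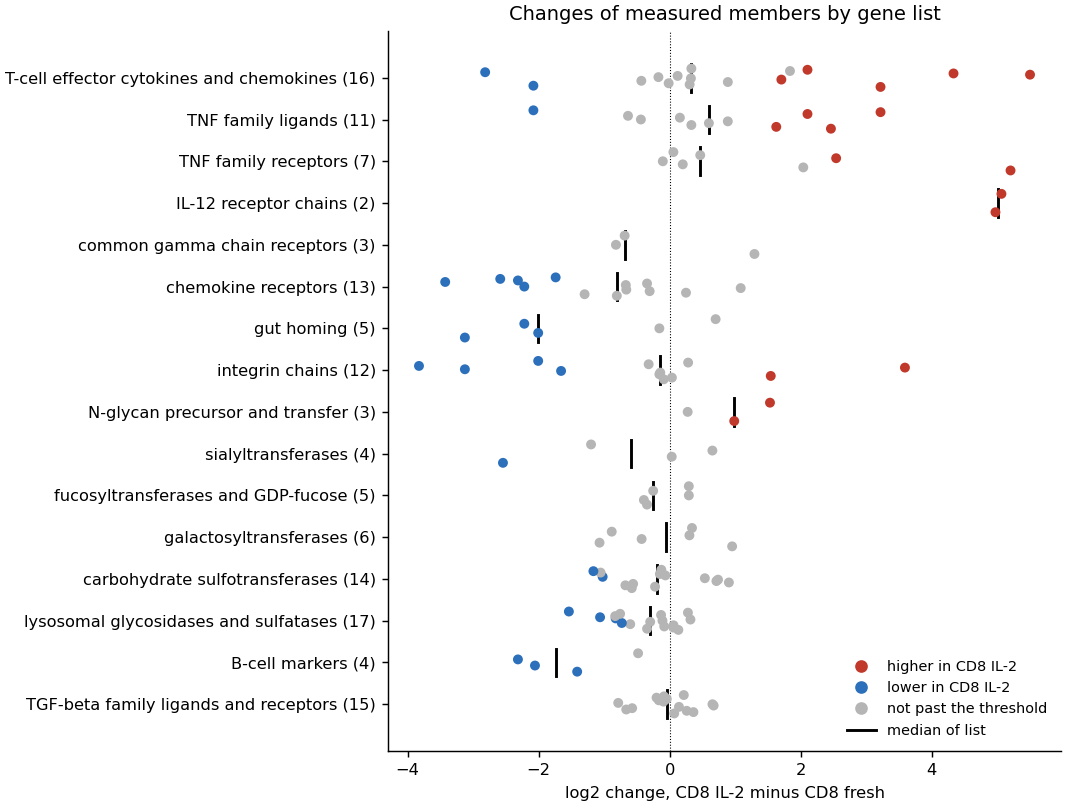
Log2 change, CD8 IL-2 minus CD8 fresh, of the measured named genes of 16 lists, with 1 point per gene, the number measured in brackets and a black line at the list's median. Chemokine receptors, gut-homing genes and B-cell markers hold falls and no rises, and the 2 IL-12 receptor chains lie near 5.

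Genes outside these lists rose as well. Aldoa, a glycolytic enzyme, had 7556, 5953 and 7303 units in CD8 IL-2 cells, against 2999, 3164 and 2005 in CD8 fresh cells (1.36 ± 0.35, SE), and was the only 1 of 6 genes of glycolysis and sugar nucleotide synthesis to pass. Its call was lost without CD8 fresh C and CD8 IL-2 L (1.12, adjusted p = 0.0915). Vegfa, the angiogenic growth factor, had 171, 333 and 239 units in CD8 IL-2 cells, against 33.2, 8.50 and 31.3 in CD8 fresh cells (2.73 ± 0.46, SE). Vegfb fell by 0.76 ± 0.26 on the log2 scale with overlapping groups and was not called without CD8 fresh A or B or CD8 IL-2 D or L (adjusted p of 0.108 to 0.222), and the other 20 of 22 growth factors listed did not pass. Tcea1, a transcription elongation factor, rose by 2.28 ± 0.34, Msmo1, of cholesterol synthesis, by 1.49 ± 0.39, and the proteasome subunits Psmb3 and Psmc1 by 1.39 ± 0.47 and 1.08 ± 0.23 on the log2 scale (SE). Msmo1 was not called without CD8 fresh C (adjusted p = 0.0568), and Psmb3 without any 1 of the 6 arrays but CD8 fresh B (0.0729 to 0.168). Timp1, a metalloproteinase inhibitor, had 338, 161 and 205 units in CD8 IL-2 cells, against 22.2, 30.8 and 56.8 in CD8 fresh cells (2.25 ± 0.55, SE). Prdm1 (Blimp-1), a transcriptional repressor of terminal lymphocyte differentiation, had 408, 563 and 636 units in CD8 IL-2 cells, against 163, 275 and 333 in CD8 fresh cells. Its change of 1.05 ± 0.34 (SE, limma adjusted p = 0.0375) shrank to 0.64 within the shared scan day and lost its call there (adjusted p = 0.298), as it did without CD8 fresh A or B or CD8 IL-2 E or L (0.0586 to 0.203).

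Sipa1, a regulator of Rap1 and so of integrin adhesion, had 475, 406 and 500 units in CD8 IL-2 cells, against 1986, 1530 and 1136 in CD8 fresh cells (-1.69 ± 0.29, SE). Il16, a chemoattractant for CD4-bearing cells, fell by 1.75 ± 0.44 on the log2 scale and was not called among arrays of the shared scan day (adjusted p = 0.0576). Mstn (myostatin) fell by 1.94 ± 0.65 on the log2 scale. Its change was -2.81 within the shared scan day and -0.20 between the other arrays, and its call was lost without CD8 fresh B or C or CD8 IL-2 D or E (adjusted p of 0.0828 to 0.193). None of 15 TGF-beta family ligands and receptors and none of 10 growth factor receptors passed.

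Probe sets without a name in the gene table made up 49 of the 120 calls, 23 higher and 26 lower. The highest were AF054581 (6.21 ± 0.50, SE) and K00083 (3.98 ± 0.45), and the lowest Z11974 (-4.67 ± 0.67) and D87747 (-3.98 ± 0.42). They are given by the identifiers of the array.

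Few probe sets separated IL-2 alone from the other CD8 cultures, in comparisons that use the same CD8 IL-2 arrays as above. Against CD8 cells with IL-2 and IL-4, limma called no probe set, with 28 at an unadjusted p under 0.05. Against CD8 cells with IL-2 and IL-12, 2 of 746 (0.268%) passed, both lower in IL-2 alone, with 43 at an unadjusted p under 0.05. One was Cxcr6, with a mean of 349 ± 116 in CD8 IL-2 and 1337 ± 112 in CD8 IL-2/IL-12 cells (SD, n = 3 each), a difference of -1.94 ± 0.37 (SE, limma adjusted p = 0.0077). The count there was 1 without CD8 IL-2 L and 0 without CD8 IL-2 L and CD8 fresh C. Itgae averaged 295 in CD8 IL-2, 260 in CD8 IL-2/IL-4 and 236 in CD8 IL-2/IL-12 cells. In the experiment files CD8 IL-2/IL-4 C and CD8 IL-2/IL-12 D carry each other's code, and their titles were followed. Without both arrays the counts were 0 against IL-2/IL-4 and 2 against IL-2/IL-12. A p that misses the threshold does not show that the cultures were alike.

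The response of CD8 cells was set against that of CD4 cells by testing the difference of both changes. Of 746 probe sets, 19 (2.55%) passed, 10 with a more positive and 9 with a more negative change in CD8 cells. At an unadjusted p under 0.05 there were 89. The count was 12 without CD8 fresh A, 7 without CD8 fresh B, 9 without CD8 IL-2 E and 11 without CD4 fresh C. Itgae had a log2 change of -3.13 in CD8 cells and of -0.41 in CD4 cells, where it did not pass, a difference of -2.71 ± 0.42 (SE, limma adjusted p = 0.000899). Of the 4 groups CD8 fresh cells had the highest level: Itgae averaged 295 in CD8 IL-2 and 2715 in CD8 fresh cells, and 328 in CD4 IL-2 and 448 in CD4 fresh cells. It kept its call in each alternative that was run.

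Cmah averaged 36.9 ± 10.9 in CD8 IL-2 and 607 ± 242 in CD8 fresh cells, and 303 ± 26.5 in CD4 IL-2 and 281 ± 162 in CD4 fresh cells (SD, n = 3 each), a difference of the changes of -3.82 ± 0.74 (SE, limma adjusted p = 0.00601). Ccl5 averaged 675 ± 64 in CD8 IL-2 and 4909 ± 1036 in CD8 fresh cells, and 2812 ± 697 in CD4 IL-2 and 1988 ± 1298 in CD4 fresh cells, a difference of -3.56 ± 0.73 (SE, limma adjusted p = 0.00831). St8sia1, the GD3 synthase of gangliosides, averaged 64.5 in CD8 IL-2 and 150 in CD8 fresh cells, and 437 in CD4 IL-2 and 92.1 in CD4 fresh cells. Tnfsf8 rose in both subsets, by 1.63 in CD8 and 3.29 in CD4 cells. CD4 fresh C has the highest 3'/5' ratio of the 30 arrays (7.62 for Actb). With scan day as a block 6 probe sets passed, and 8 of the 9 named genes that differ between subsets, all but Itgae, lost the call (adjusted p of 0.249 for Cmah, 0.106 for Ccl5, 0.106 for St8sia1 and 0.784 for Tnfsf8). Without CD4 fresh C the CD4 difference of Cmah was -0.28, against 0.31 with it, and that of Ccl5 was 0.09, against 0.75.

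**Figure D5:**
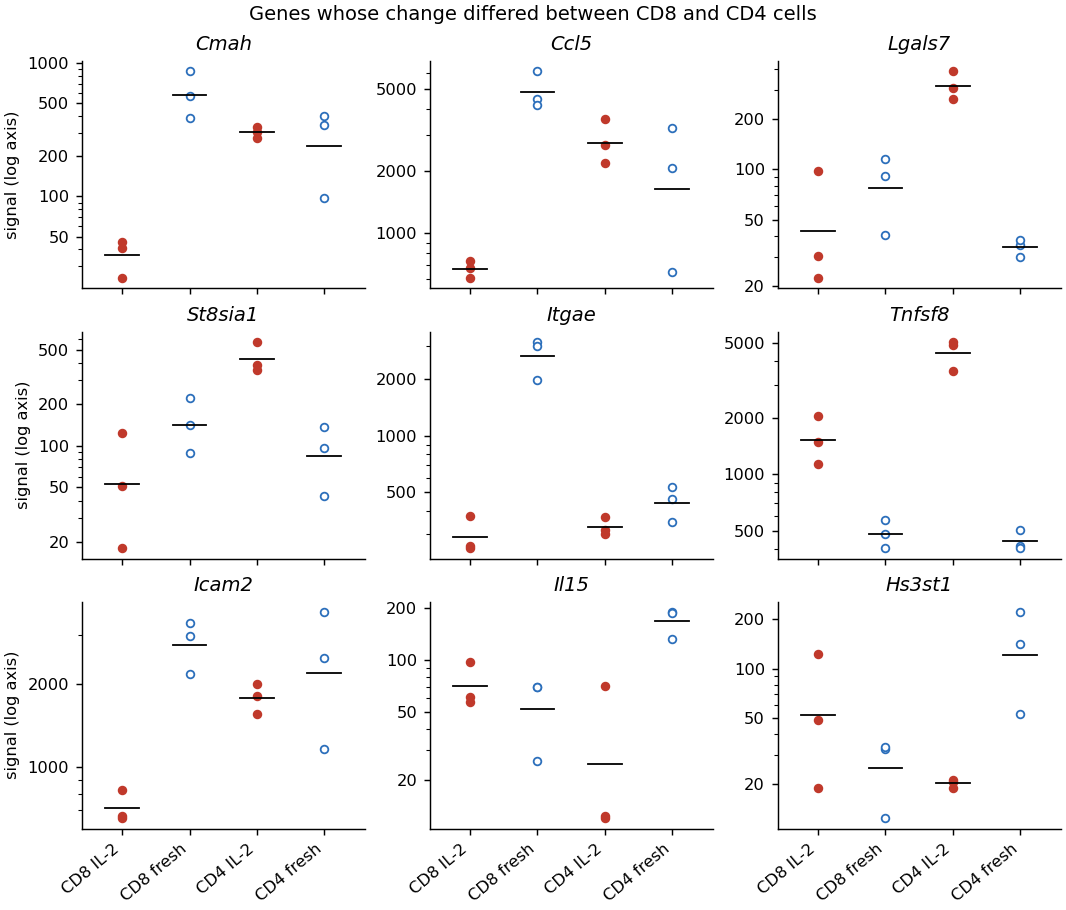
Signal (log axis) of the 9 named genes whose change differed between CD8 and CD4 cells, on 3 arrays per group, with a line at the group's mean on the log2(signal + 16) scale. Itgae lies at 1981 to 3165 in the CD8 fresh arrays, above the other 9 arrays, and Cmah and Ccl5 have their lowest means in CD8 IL-2.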

How the data were processed

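Each array's deposited values are linear intensity units, 1 for every probe set. No source used here names the program that summarised the probes or its scaling. Scan days and chip lots were read from the experiment files. Of 752 probe sets 6 controls were left out. Names came from a RefSeq table (GRCm38.p6): 449 probe sets stand for 374 genes, and 297 have no name here. A gene is represented by its probe set of highest mean over 30 arrays.

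Values were taken as log2(signal + 16), which understates changes of dim genes. One model of 10 group means was fitted to 30 arrays (limma 3.58.1, R 4.3.3, 20 residual degrees of freedom), two-sided, with Benjamini-Hochberg adjustment over 746 probe sets, and was tested on simulated data. Genes are named by a rule: the 20 highest and 20 lowest changes among called genes without overlap between groups and with a higher mean above the median of all probe sets (7.09, log2), list members, and up to 10 genes by p in each other comparison. The members and lists were chosen with earlier results of these data known. Alternatives were scaling, pseudocount (1, 64), dim probe sets, variance models, batch blocks, 3'/5' covariate and arrays left out. Some measured genes are not reported here. Promoter windows are RefSeq's (GRCm38.p6). Figures used Python 3.11.15 and matplotlib 3.10.9.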

Additional observations from a re-analysis of the deposited data

Results flagged for a closer look

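The change of IL-2 culture against fresh cells differed between CD8 and CD4 cells, by limma's test of the difference, for 9 named genes. The values are the log2 change in CD8 minus that in CD4 cells. Itgae had -2.712, and it fell in CD8 cells. Cmah had -3.817 and Ccl5 -3.563, each with a fall in CD8 cells and a CD4 difference that did not pass and was -0.28 and 0.09 without CD4 fresh C. Icam2 had -1.636, with a fall in CD8 cells. Lgals7 (galectin 7) had -3.393 and St8sia1 -3.342, each with a CD4 IL-2 mean above the CD4 fresh mean and a CD8 difference that did not pass. Tnfsf8 had -1.663, with a rise in both subsets. Hs3st1, a heparan sulfate 3-O-sulfotransferase, had 2.662 and Il15 2.527, each with dim signals and a CD8 difference that did not pass. Hs3st1 averaged 63.8 in CD8 IL-2 and 26.1 in CD8 fresh cells, and 20.1 in CD4 IL-2 and 138 in CD4 fresh cells. Fresh B cells averaged 1019 for Hs3st1 and 224 for Il15, and their part in these values was not tested. Without CD4 fresh C, Hs3st1, Il15, Icam2 and Tnfsf8 were not called (adjusted p = 0.105 for each), nor were they without CD8 fresh B (0.0969 to 0.171) or CD8 IL-2 E (0.0600 to 0.139). With scan day as a block only Itgae of the 9 kept its call. There Lgals7 had an adjusted p of 0.135 and St8sia1 of 0.106, and with scan period as a block St8sia1 had 0.0689. Groups of 3 arrays were too small for a check of single outlying arrays.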

How the results depend on the processing

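No paired analysis was possible because the CD8 IL-2 and CD8 fresh arrays share no title letter. No called probe set of CD8 IL-2 against CD8 fresh turned sign under any alternative. Fits of only the 6 or only the 12 CD8 arrays, or with other variance models, leave each change as it was, so no sign could turn. The other alternatives reuse the arrays that gave the calls, so kept signs are no separate support. The number of calls stayed between 88 (only the 6 arrays compared) and 135 (pseudocount 64), with 97 to 116 when 1 of those 6 was left out. With median centring 43 were lower, against 65. After adding the 3'/5' ratio to the model 129 passed, 111 of them among the 120, and 6 of the 62 named genes lost their call. Mstn, Prdm1, Idua, Vegfb and Xcr1 were among these (limma adjusted p of 0.0558 to 0.103). The change of Aldoa was 1.03 there, against 1.36, and it kept its call. Of 62 called named genes 35 kept their call throughout. Among arrays of the shared scan day 94 probe sets passed, 83 of them among the 120, and 107 without CD8 fresh C and CD8 IL-2 L.

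The count of 19 for the CD8 and CD4 difference fell to 12 with median centring or chip lot as a block, 11 with pseudocount 1, 8 with a scan period block, 6 with a scan day block and 8 after adding the 3'/5' ratio to the model. It was 11 without CD4 fresh C and 7 to 21 when 1 CD8 array was left out. The title letter as a replicate block gave 11. The deviations of same-letter CD8 and CD4 arrays correlated at -0.02 to 0.36 for fresh and -0.01 to 0.07 for IL-2 arrays, not above 0.1 in every pair, so the letters were not taken to pair them. For IL-2 against IL-2/IL-12 the count of 2 became 4 with pseudocount 64 or the 3'/5' covariate, 1 with scan day or the title letter as a replicate block, 0 with the shared day only and 0 without CD8 fresh C and CD8 IL-2 L, with 1 to 3 when 1 array was left out. The cause of these moves was not tested. The alternatives of shared scan day, chip lot and arrays left out in pairs were chosen after seeing the data.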
